A study of Homo sapiens with 5 samples.

Results

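TAFA5 is a protein-coding gene of 262380 bp on the long arm of chromosome 22, at chr22:48489553-48751932 (GRCh38), and it is described here through the H3K9me3 peaks in its gene body and in the 1 Mb on each side. Those peaks number 215 of 24665 in the EV list, 16 of 12650 in the KD list and 88 of 14362 in a further list that carries no genotype in its name. The gene body itself held 44, 7 and 34 peaks in these lists. The gene was chosen because its covered share, the part of the gene body under peaks, was known to be high in EV and low in KD. Both covered shares and their difference are therefore given as a description, and no test was made.

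The study measured trimethylation of histone H3 lysine 9 (H3K9me3) by chromatin immunoprecipitation and sequencing in cells of the human embryonic kidney line HEK293T. The labels name 5 samples: H3K9me3 libraries from cells with the genotypes WT, EV and KD, and inputs without antibody from WT and EV. EV is read as an empty-vector control and KD as the knockdown of the design, whose target is written KCNQ1OT1_K, after the long non-coding RNA KCNQ1OT1. The labels do not say how the knockdown was made, whether the cells were 1 clone, or what the suffix means, and no RNA was measured in these files, so neither the knockdown nor the cell type was checked. Each group had 1 library, so no difference below has a replicate check. The number of reads is unknown, and fewer reads alone give fewer and narrower peaks. The list without a genotype was given to no group, and its values stand apart from the comparison of EV with KD.

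H3K9me3 is placed by histone methyltransferases such as SETDB1 and the SUV39 enzymes and is bound by heterochromatin protein 1, and broad tracts of it cover repeats, zinc finger gene clusters and silent genes of other cell lineages. TAFA5, formerly FAM19A5, encodes a small secreted, cysteine-rich protein of the TAFA family, whose members are expressed mainly in brain. In the RefSeq table the gene has 2 starts in the same direction, the first at its 5′ end and the second 86.8 kb inside it.

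The 250 bases before each start are shown because both starts lay under EV peaks and under no KD peak. They were read from RefSeq on GRCh38.p14, plus strand, and capitals mark CpG dinucleotides, the sites of DNA methylation.
TAFA5 first start, chr22:48489303-48489552: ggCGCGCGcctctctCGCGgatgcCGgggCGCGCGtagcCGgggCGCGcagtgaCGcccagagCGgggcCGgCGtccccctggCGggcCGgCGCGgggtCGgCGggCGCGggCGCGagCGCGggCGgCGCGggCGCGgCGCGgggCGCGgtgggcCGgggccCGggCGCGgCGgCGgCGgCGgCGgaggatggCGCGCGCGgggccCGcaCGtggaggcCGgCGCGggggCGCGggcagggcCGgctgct
TAFA5 second start, chr22:48576090-48576339: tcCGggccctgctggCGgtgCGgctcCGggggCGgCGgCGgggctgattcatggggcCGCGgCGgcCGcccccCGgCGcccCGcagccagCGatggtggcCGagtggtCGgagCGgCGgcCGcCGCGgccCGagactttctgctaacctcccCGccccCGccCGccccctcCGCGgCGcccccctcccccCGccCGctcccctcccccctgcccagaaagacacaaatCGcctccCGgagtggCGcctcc
Both sequences are dense in CpG, with 58 in the first and 34 in the second, against a median of 11 over the 35116 starts in the table. Only 0.0171% of those starts had at least 58, and 6.84% had at least 34. The G and C content was 89.6% and 80.4%, against a median of 58.0%.

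At the first start, position 48489553, the EV peak ran from 48487116 to 48491107 and had a width of 3992 bp, a −log10 p of 4.01 and a fold enrichment of 2.69. Fold enrichment and p are the authors' values for each peak within its own list. The KD list had a peak of 449 bp just upstream, at 48488838 to 48489286, which ended 0.267 kb before the start. At the second start, position 48576340, the EV peak ran from 48574982 to 48580883, while the nearest KD peak lay 6.21 kb away. All 2 kb around each start was covered in EV, and 22.4% and 0% in KD. Of all starts in the table, 1.55% lay under an EV peak and 0.908% under a KD peak. Both TAFA5 starts belong to a gene chosen for high EV and low KD cover, so nothing is read from these rates. In the list without a genotype neither start was covered, as was true of all but 0.296% of starts, and the nearest peaks were 9.92 kb and 1.24 kb away.

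In EV the whole length of TAFA5 was marked, by many separate peaks of moderate width. Peaks covered 145509 bp, or 55.5% of the gene body, in EV and 6314 bp, or 2.41%, in KD. A covered share of at least 10% was reached by 2% of the 16814 protein-coding genes of at least 5 kb in EV and by 0.595% in KD, and TAFA5 was among them in EV and not in KD. The share in KD was at least 5-fold lower for TAFA5 and for 51.8% of the 336 genes with at least 10% in EV. As TAFA5 was chosen by this contrast, nothing is read from its place among them.

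**Figure D1:**
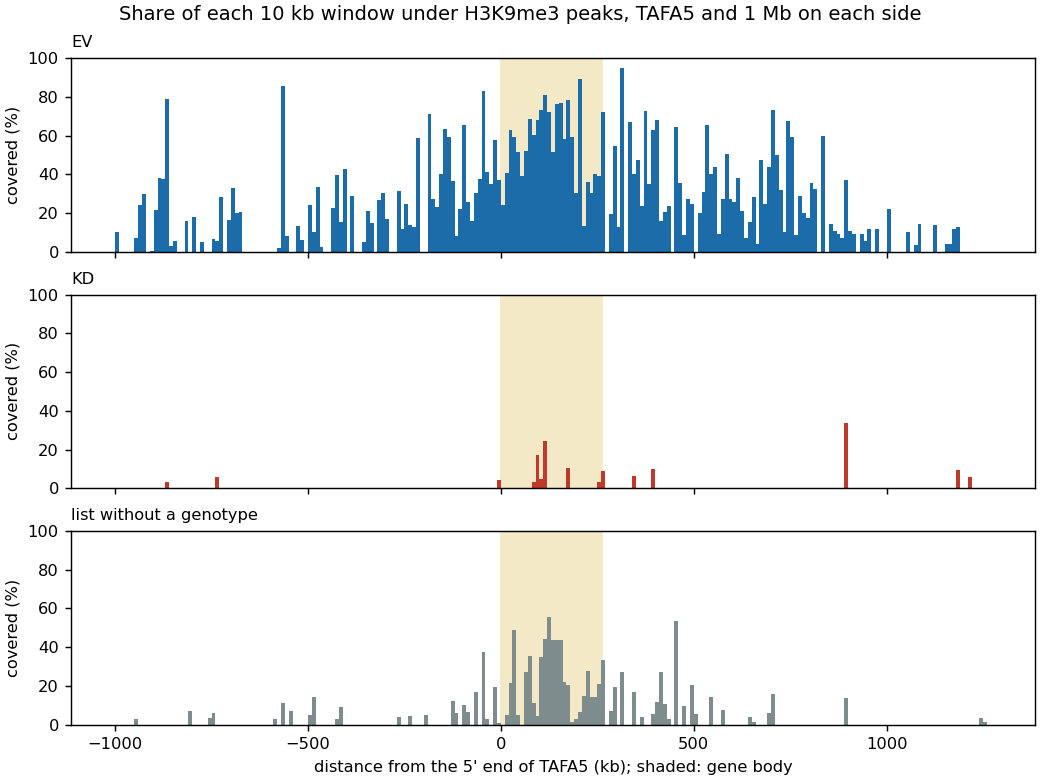
Share of each 10 kb window under peaks (y axis, percent) against distance from the 5′ end of TAFA5 in kb (x axis), for EV, KD and the list without a genotype, with the gene body shaded. In EV every window of the gene body holds peaks and the cover thins out over the flanks. In KD, 7 of the 27 windows that start in the gene hold a peak. The last of these windows runs past the gene end, and its KD peak lies beyond that end.

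The EV cover formed a plateau over the middle of the gene. Of the 27 windows of 10 kb that start within TAFA5, all 27 held an EV peak, 18 were covered to at least 50% and 5 to at least 75%. Window values ran from 13.4% to 89.3% with a median of 59.2%. In KD, 20 of the 27 windows were empty and the highest value was 24.5%, in the window 110 kb from the 5′ end. When the gene was cut into 5 equal sections from the 5′ end, EV covered 47.2%, 62.5%, 68.1%, 64.7% and 34.7% of them in turn. The KD shares of the same sections were 0%, 4.75%, 4.67%, 1.95% and 0.661%. The section at the 5′ end thus held no KD peak at all, although 11 EV peaks lay in it, and both lists had their lower values at the ends. Across the 27 windows Spearman's rho between the EV and KD shares was 0.43, as a description of neighbouring windows of the same libraries.

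Single EV peaks in TAFA5 were wide, while their medians of −log10 p and fold enrichment were near those of other EV peaks. Each peak has a single value of each, whatever its width. How the caller formed that value over a wide peak is not given. Peak widths make up the covered share by which the gene was chosen, so the contrast in width is only a description. The width of the TAFA5 peaks ran from 368 to 13447 bp with a median of 2936.5 bp, and 27 of 44 (61.4%) were at least 2 kb wide. Among the 18193 EV peaks that lay outside the region and outside gene-free stretches (2 Mb or more without an annotated gene), the median width was 919 bp and 9.52% reached 2 kb. Strength did not show this contrast: for the TAFA5 peaks the median −log10 p was 4.32 and the median fold enrichment 3.22, against 4.38 and 3.04 for those other EV peaks. The strongest TAFA5 peak, at 48678954 to 48681150, had a −log10 p of 8.47. The EV peaks in the flanks lay between in width, with a median of 1649 bp, and their median −log10 p was 4.07.

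**Figure D2:**
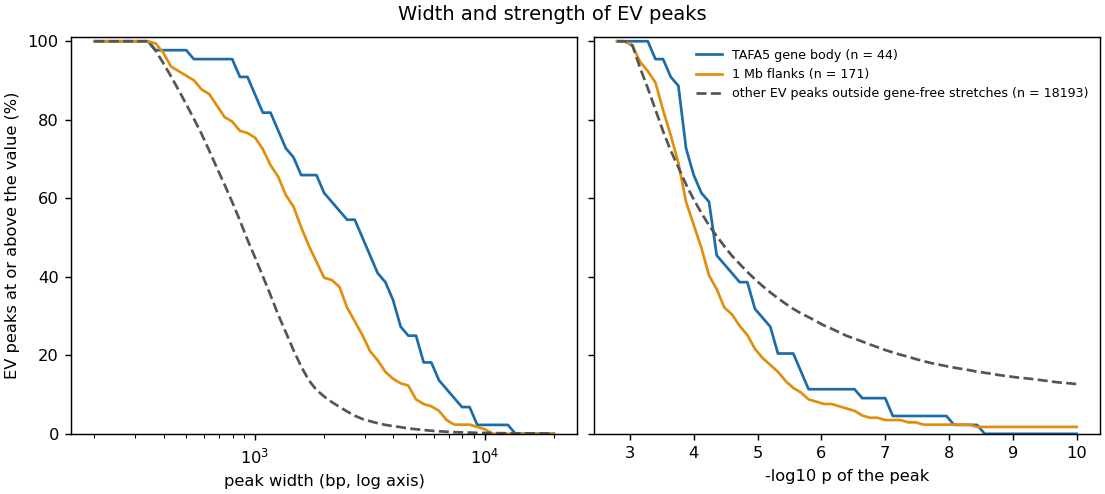
Percentage of EV peaks (y axis) at or above a given width in bp (left, log axis) or −log10 p (right), for the 44 peaks of TAFA5, the 171 of its 1 Mb flanks and 18193 other EV peaks outside gene-free stretches. The TAFA5 curve lies to the right of the others over most of the range of width, and the −log10 p of TAFA5 peaks does not exceed 8.47.

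The widest EV peak of the gene spanned 48601825 to 48615271 (13447 bp), and 24 of the 18408 EV peaks outside gene-free stretches were at least as wide. Next came peaks of 8926 bp at 48689612 to 48698537 and of 8920 bp at 48657663 to 48666582. In all, 11 of the 44 EV peaks were 5 kb or wider and 6 were under 1 kb. The 7 KD peaks were narrow, from 303 to 1693 bp with a median of 848 bp, beside a median of 730 bp for all KD peaks outside gene-free stretches. Their median fold enrichment was 3.61 and their median −log10 p 4.54, against 3.69 and 4.93 for those KD peaks.

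Neighbouring EV peaks were closely spaced, and spacing too is tied to the covered share by which the gene was chosen. The 43 gaps between them had a median of 2173 bp, and 40 were under 5 kb. The shortest gap was 1402 bp and the longest 8218 bp, the latter after the peak that ends at 48724118. No neighbouring peaks of the whole EV list lay nearer than 1397 bp, so that shorter breaks in the signal could not appear in it. The shortest gap was 1167 bp over the whole KD list and 1133 bp over the list without a genotype. The lists thus differ in the shortest break they hold, which limits comparisons of width and gap between them. Midpoints of neighbouring peaks were 6310 bp apart at the median, with a coefficient of variation of 35.1%. In the upstream and downstream flanks the median EV gap was 4767 and 4682.5 bp, and midpoint spacing varied more, with coefficients of 119% and 81.6%. The 6 gaps between KD peaks ran from 2518 to 79134 bp with a median of 12319.5 bp.

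**Figure D3:**
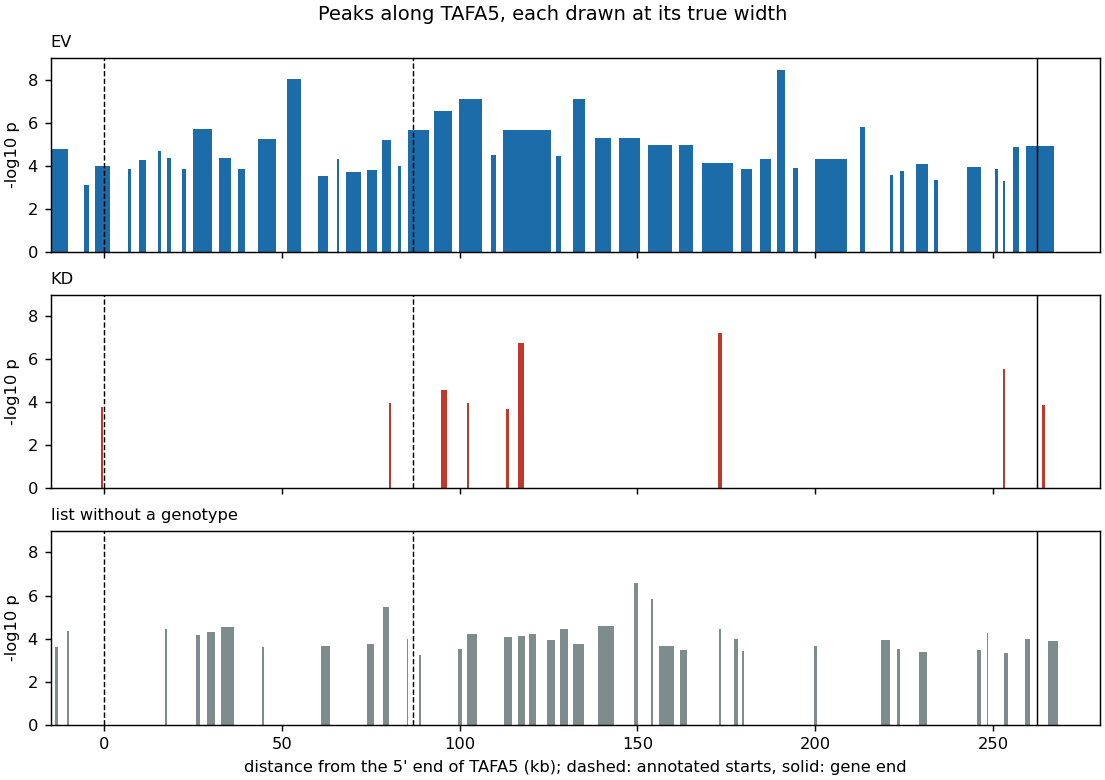
Peaks along TAFA5 in the 3 lists, each bar at its true width and as high as its −log10 p (y axis, the authors' value within each list), against distance from the 5′ end in kb; dashed lines mark the annotated starts and the solid line the gene end. EV peaks stand along the whole gene with gaps of up to 8218 bp, and 5 of the 7 KD peaks of the gene body are centred between 80.4 and 117 kb.

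All 7 KD peaks of the gene body lay on EV peaks. Of their 6314 bp, 6299 bp (99.8%) were shared with EV, and over the whole KD list 87.7% of peaks were overlapped by EV. As EV covered 55.5% of the gene body, with a median gap of 2173 bp, a high rate of overlap was largely given in advance. The narrowest, of 303 bp at 48569833 to 48570135, and the widest, of 1693 bp at 48584321 to 48586013, each lay inside one EV peak. Next to it, the KD peak at 48591702 to 48592196 lay inside the EV peak of 6467 bp that had the gene's highest EV fold enrichment, 4.36. A pair of KD peaks, at 48602651 to 48603498 and 48606017 to 48607619, fell within the widest EV peak. The strongest KD peak, at 48662351 to 48663375 with 7.23 for −log10 p and 5.25 for fold enrichment, lay inside the EV peak of 8920 bp. KD peaks thus marked short stretches within wide EV peaks. The exception was near the 3′ end, where the KD peak at 48742510 to 48742856 (347 bp) and the EV peak at 48742525 to 48742892 (368 bp) were of like width. That EV peak was the narrowest and weakest of the gene, with 2.04 for fold enrichment and 3.29 for −log10 p, while the KD peak had 4.36 and 5.54 within its own list.

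Of the 44 EV peaks, 8 (18.2%, exact Clopper-Pearson 95% interval 8.19 to 32.7) were overlapped by KD, and 37.7% of all EV peaks were. Of these 8, 2 straddle the ends of the gene and met a KD peak just outside it. The intervals cover counting error over peaks only, and neighbouring peaks of one tract are not independent. Stronger EV peaks were in general found in KD more often. Other EV peaks in the same of 20 bins of −log10 p were found at a mean rate of 27.2%, and those in the same bin of both −log10 p and width at 36.1%. With only peaks outside gene-free stretches as the background, these rates were 21.7% and 28.2%. As TAFA5 was chosen for high EV and low KD cover, a low share found in KD was partly given in advance. Nothing is read from its distance to these rates. In TAFA5 the EV peaks found in KD had medians of 5.04 for −log10 p and 5834 bp for width, against 4.30 and 2473.5 bp for those not found. Single peaks departed from this: the weakest EV peak of the gene was found and the strongest was not. Only 4.33% of the EV covered bases of the gene body lay under KD peaks.

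The EV tract continued beyond both ends of the gene. With peaks joined across gaps of at most 10 kb, a single EV run of 54 peaks spanned 339 kb, from 48417498 to 48756791, and 54.3% of it was covered. It began 72055 bp before the gene and ended 4859 bp after it. Among the 15276 EV runs outside gene-free stretches it was the second longest, and the longest of those that overlap an annotated gene. In KD the same rule gave 5 separate runs in the gene, the longest of 7.88 kb. The last EV peak, at 48748835 to 48756791, straddled the gene end, and the next EV peak followed 20783 bp later.

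The 1 Mb flanks were covered to 18.1% upstream and 21.7% downstream in EV and to 0.136% and 0.739% in KD. EV cover fell off with distance on both sides. The 500 kb next to the gene had 25.4% upstream and 34.6% downstream, and the distal 500 kb had 10.8% and 8.72%. In KD the upstream flank held 3 peaks and the downstream flank 6, and 15 of the region's 16 KD peaks were overlapped by EV. KD covered length was 0.749% of that in EV upstream, 3.41% downstream and 4.34% in the gene body, against 31.1% over all sequence outside gene-free stretches. Of the 171 EV peaks that lay wholly in the flanks, 6 (3.51%, interval 1.30 to 7.48) were found in KD, beside 22.6% of other EV peaks in the same bins of −log10 p, or 18.4% of those outside gene-free stretches. The flanks were not used to choose the gene, but they belong to the same EV tract and libraries. On chromosome 22 outside gene-free stretches, the gene and its flanks held 215 of 659 EV peaks (32.6%) and 45.4% of the covered bases. In KD they held 16 of 188 peaks (8.51%) and 7.21% of the covered bases. These totals include the gene body, which was chosen for high EV and low KD cover, so part of this difference was given in advance.

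No other protein-coding gene lies in the region. The annotation lists 23 further genes there, 18 long non-coding RNAs, 3 microRNAs and 2 pseudogenes. EV peaks overlapped 15 of them and KD peaks 4, beside 13.2% and 6.14% of all 59679 annotated genes. The nearest protein-coding genes, TBC1D22A upstream and BRD1 downstream, lie 1313854 and 1021346 bp away. TBC1D22A, which encodes a Rab GTPase-activating protein family member, was covered to 0.521% in EV and 0.279% in KD. BRD1, which encodes a bromodomain protein of a histone acetyltransferase complex, carried no peak in either.

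Of the 9 annotated genes within 300 kb of TAFA5 or inside it, 8 were covered to at least 46% in EV, as were 0.994% of all annotated genes, and 2 carried a KD peak. The exception was MIR3201, a microRNA gene, which had no peak in EV or KD. Both the distance and the share were chosen after the values were seen, and LOC107985581, just beyond at 300.9 kb, had 26.6%. The EV cover of the genes inside TAFA5, named next, is also part of the share by which TAFA5 was chosen. LOC124900480, which lies within TAFA5 and starts under the same EV peak as the second TAFA5 start, was covered to 81.0% in EV and 11.4% in KD. LOC284933, also within TAFA5 and on the opposite strand, had 46.3% and no KD peak, and its own start was not under an EV peak. LOC124905142, 13.1 kb upstream, was covered to 100% in EV and 0% in KD. Further upstream, LOC105373081 had 74.5% in EV and LINC00898 63.8%, with 0% and 2.91% in KD. Downstream, LINC01310 had 57.6% and 3.17%, and NHIP 58.2% and no KD peak. The 2 largest non-coding genes were covered far less: EPIC1, upstream, had 7.82% and 0.269%, and MIR3667HG, downstream, 4.56% and no KD peak. Among the 14 genes further away, 2 were covered to at least 46% in EV, LINC00898 and the pseudogene RPL35P8. The microRNA gene MIR4535, 28.4 kb downstream, lay within an EV peak of 5868 bp and under no KD peak.

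TAFA1 to TAFA4, the other genes of the family, had at most 1 H3K9me3 peak each in EV and in KD. The EV shares of TAFA1, TAFA2 and TAFA4 lay near the median of genes of at least 100 kb, 0.236%, of which 57.2% had any EV peak. TAFA1 had 1 EV peak over 0.260% of its 554078 bp and no KD peak. TAFA2 had 1 peak in each list, over 0.198% in EV and 0.181% in KD, and TAFA4 likewise, over 0.354% and 0.174%. TAFA3, the shortest of them at 8331 bp, had none in either. No start of these 4 genes listed in the table lay under a peak. Of 7 genes for reported binding partners of TAFA proteins, 1 carried EV peaks and none a KD peak, beside 27.8% and 12.3% of all protein-coding genes of at least 5 kb. NRXN3, which encodes a synaptic adhesion protein, was covered to 0.312% in EV. The sphingosine-1-phosphate receptor gene S1PR2, the synaptic adhesion gene LRRC4B, NRXN2, the formyl peptide receptor genes FPR1 and FPR2, and CMKLR2 had no peak in EV or KD.

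Among the 3351 protein-coding genes of at least 100 kb, TAFA5 ranked first by covered share in EV and stood at place 49 in KD. The median share of these genes in EV was 0.236%. As TAFA5 was chosen by its EV and KD shares, its place, distance and ratio among them are a description only. ZNF678, a zinc finger gene, came next with 44.5% in EV and 11.1% in KD. PTPRN2, which encodes a receptor-type tyrosine phosphatase-like protein of secretory granules, followed with 25.1% and 9.51%. PCDHGB1, PCDHGB2 and PCDHGA4 of the protocadherin gamma cluster, whose bodies overlap and share peaks, lay between 16.8% and 17.3% in EV. These 5 were also the genes nearest to TAFA5 by distance in the plane of EV and KD shares, and even ZNF678 was 14.0 percentage points away. Of the 23 such genes with at least 10% in EV, 15 belonged to that cluster. Their KD share was between 4.34% of the EV share, at TAFA5, and 86.9%, at BRF1, with a median of 30.2%. After TAFA5 came ANKRD36C with 8.24%. PTPRN2, 1048768 bp long, had 127 EV and 78 KD peaks, more than the 44 and 7 of TAFA5.

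**Figure D4:**
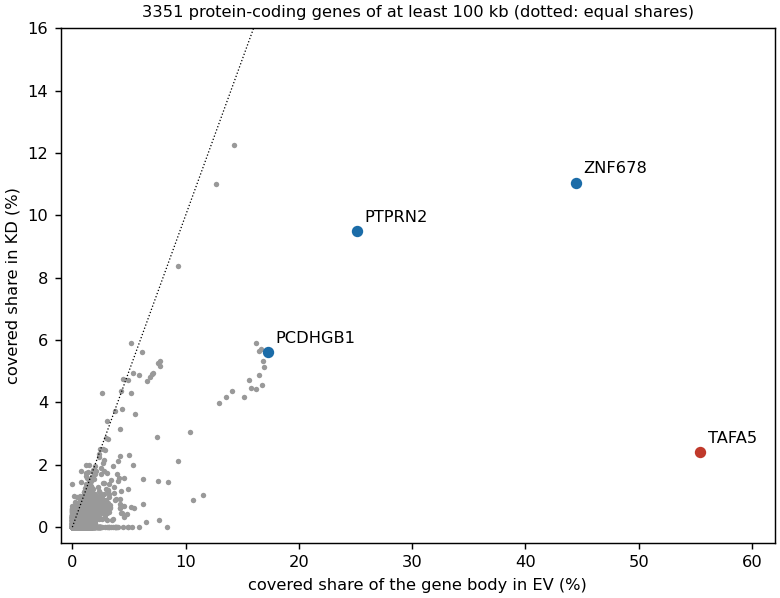
Covered share of the gene body in KD (y axis, percent) against EV (x axis, percent), 1 point for each of 3351 protein-coding genes of at least 100 kb; the dotted line marks equal shares. TAFA5, in red, lies at 55.5% in EV and 2.41% in KD, below ZNF678 (44.5% and 11.1%) and PTPRN2 (25.1% and 9.51%).

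For equal peak numbers, EV was cut to its strongest 12650 peaks by −log10 p, the full number of the KD list. EV then kept 18 peaks over 31.2% of TAFA5, beside the 7 KD peaks over 2.41%. The EV share was smaller by more than 1.5 times than with all peaks. As the gene was chosen by this contrast, its unchanged direction is not a check of it.

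The list without a genotype was marked over TAFA5 as well, and its values were not used to choose the gene. It held 34 peaks there, which covered 57620 bp or 21.96% of the gene body. A share of at least 10% was reached by 0.404% of the 16814 genes of at least 5 kb in this list. Among those 16814 genes TAFA5 stood at place 16. It had the highest share among the 3351 genes of at least 100 kb, ahead of LPA, the gene of apolipoprotein(a), with 15.9%. Its peaks were 297 to 4314 bp wide with a median of 1523.5 bp, and the 33 gaps between them had a median of 3737 bp. Of the 27 windows, 25 held a peak, and the highest share, 55.8%, was in the window 120 kb from the 5′ end. The 5 equal sections were covered to 15.3%, 21.6%, 39.2%, 15.1% and 18.6%, highest in the middle of the gene. The flanks had 1.97% upstream and 3.19% downstream in this list. The longest run, at gaps of at most 10 kb, held 16 peaks over 80.6 kb, from 48589116 to 48669684. Among the other TAFA genes this list had no peak, and among the binding partners 4 peaks in NRXN3. Of its 34 peaks in TAFA5, 31 lay on an EV peak, beside 50.2% of the whole list. As EV covered 55.5% of the gene body, a high rate was largely given in advance. In turn 24 of the 44 EV peaks were overlapped by the list without a genotype, beside 24.7% of all EV peaks. Both other lists overlapped 6 of the 44 EV peaks and neither overlapped 18, beside 18.1% and 55.6% of all EV peaks.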

How the data were processed

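H3K9me3 ChIP-seq of HEK293T cells is available as 3 deposited lists of broad peaks, without headers. The EV and KD lists were matched to samples by name, the remaining list to none. Reads were aligned with Bowtie2 and peaks called with MACS2 on GRCh38, per the submitters' processing notes; no source used here gives versions, options, control libraries, filters or pooling. Each peak has, from the authors' caller, a fold enrichment (a ratio over the caller's background), a −log10 p, a −log10 q and a score, 10 times the −log10 q. The score was not used. The deposited −log10 q values begin at about 1.01, near q = 0.1. Depth is unknown.

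Peaks on chromosomes 1 to 22, X and Y were kept, and coordinates count from 1. Genes and starts came from RefSeq tables of GRCh38.p14, which are not complete and give no exons. Cover, overlap (at least 1 bp), gaps and runs were computed with Python 3.11.15, numpy 2.4.6 and pandas 2.3.3. On 4000 simulated peaks all 7 quantities equalled those of bedtools 2.31.1. Intervals are exact Clopper-Pearson ones (scipy 1.17.1), and plots used matplotlib 3.10.9. With 1 library per group no test between conditions was made. Gene-free stretches are at least 2 Mb without an annotated gene.

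TAFA5, the lists and the alternatives were chosen with earlier results of these data known. Named genes are TAFA1 to TAFA5, neighbours with a peak, those of at least 100 kb with the largest EV share or nearest to TAFA5, and binding partners. Alternatives were a higher −log10 q or fold enrichment, equal peak numbers, merged peaks, midpoint assignment, reciprocal overlap, other gaps, shorter flanks and longer genes. Bins of width and the background outside gene-free stretches were added after the data were seen. 1 planned binding partner is not reported here.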

Additional observations from a re-analysis of the deposited data

Results flagged for a closer look

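A signal appeared in data outside the comparison of EV with KD: the list without a genotype held 34 peaks in TAFA5, over 21.96% of the gene body. Of these, 31 (91.2%, interval 76.3 to 98.1) lay on an EV peak, against 50.2% of all peaks of that list. EV peaks covered 55.5% of the gene body, with a median gap of 2173 bp. A high rate of overlap was thus largely given in advance, and nothing is read from it. The list without a genotype overlapped 24 of the 44 EV peaks there (54.5%, interval 38.8 to 69.6), against 24.7% of all EV peaks. Other EV peaks in the same bins of −log10 p were overlapped at 20.5%, and in the same bins of −log10 p and width at 34.6%. With only peaks outside gene-free stretches as the background these rates were 8.05% and 16%. In the flanks 25 of 171 EV peaks (14.6%, interval 9.69 to 20.8) were overlapped, against 17.7% and 26.9% by these bins over all other EV peaks and 7.35% and 13.5% outside gene-free stretches. The flanks thus lay below or above the rate of like peaks depending on the background. Which sample this list belongs to is not known, so no condition is compared here.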

How the results depend on the processing

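No paired analysis was possible because each group had 1 library, and for the same reason no library could be left out. In each alternative run on both lists, EV covered more of TAFA5 than KD. As the gene was chosen by this contrast, that direction is not a check of it. The covered share in EV, KD and the list without a genotype was 44.3%, 1.78% and 5.44% at a −log10 q of at least 2, and 78.1%, 3.37% and 31.3% with peaks within 3 kb merged. At a fold enrichment of at least 3 it was 46.4% in EV and 20.8% in the list without a genotype, and with equal peak numbers 31.2% and 19.8%; KD did not change under either. Peak numbers in EV were 28 at the stricter −log10 q, 18 with equal numbers and 14 after merging. In KD they were 4 at the stricter −log10 q, and in the list without a genotype 8 there and 20 after merging. The median EV width and gap were 4762 and 4822 bp with equal peak numbers. At the stricter −log10 q the median KD width was 1314 bp, and the median gap 54731 bp in KD and 15185 bp in the list without a genotype. With flanks of 500 kb, cover upstream and downstream was 25.4% and 34.6% in EV, 0.0898% and 0.502% in KD, and 3.14% and 5.996% in the list without a genotype. With equal peak numbers the 1 Mb flanks had 7.07% and 7.18% in EV, and 1.32% and 3.003% in the list without a genotype. At a reciprocal overlap of at least 50%, 2.27% of the EV peaks of TAFA5 were found in KD. With gaps of at most 5 kb the longest run in EV, KD and the list without a genotype was 207, 4.97 and 30.7 kb. With 20 kb it was 456, 37.8 and 251 kb. Among all genes of at least 5 kb TAFA5 stood at place 5 in EV and 536 in KD, and among those of at least 100 kb at 1 and 49. Stricter settings hold fewer peaks by construction. Unknown depth limits every comparison of peak number and covered length.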

Other observations

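The 3 strongest EV peaks of the region lay outside TAFA5. One, at 48251971 to 48253356, had a −log10 p of 13.9 and was overlapped by the list without a genotype and not by KD. Another, at 49265447 to 49267309, had 11.6 and was overlapped by neither. The remaining one, at 49384377 to 49388064, had 13.4 with a fold enrichment of 5.66 and was overlapped by both. The KD peak at the last place, of 3395 bp at 49384845 to 49388239, was the widest KD peak of the region, with a fold enrichment of 4.45 in its own list. A further EV run of 19 peaks spanned 49005620 to 49124085, over the non-coding gene NHIP, and held no KD peak. After the TAFA5 run, the longest EV runs that overlap a protein-coding gene were a pair in PTPRN2 of 307559 and 128709 bp. They were covered to 10.5% and 16.7% in KD, and the TAFA5 run to 2.26%.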
